A study of Homo sapiens with 6 samples.

Results

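The genes described here are 45 genes of cell adhesion, homing and cytoskeletal anchoring, taken by symbol from the 17579 genes of the authors' gene table. They comprise 3 chemokine receptors, 8 integrin alpha chains, 5 integrin beta chains, 5 adhesion molecules of the immunoglobulin superfamily, CD44 and SELPLG, 5 tetraspanins or other surface proteins, 2 cadherins, the basement membrane protein NID2, 6 adaptors between integrins and actin, 4 proteins that crosslink or bind actin, 3 linkers of the membrane to actin, and vimentin. RNA-seq was carried out on LP-1, an established line from a multiple myeloma, a cancer of plasma cells. The labels call the cells B lymphoblasts, and cells of both groups were grown with fetal bovine serum. The control group (LP1_Vector, 3 libraries, written C1 to C3) had received a virus with a non-targeting guide RNA, and the other group (LP1_sgAURKA, 3 libraries, A1 to A3) a virus with a guide RNA against AURKA, and is labelled as an Aurora A knockout. Whether the cells were 1 clone or a pool, and how long after infection they were collected, is not given in the sources used here. Nor do the labels say whether the replicates were separate cultures, and the p-values therefore reflect the spread among these libraries alone, which may be technical.

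Integrins are pairs of an alpha and a beta chain that bind matrix proteins or ligands on other cells. On the inner side of the membrane, talin and kindlin bind the beta chain, and vinculin, paxillin, zyxin and BCAR1 join the complex and connect it to actin filaments. Myeloma cells live in the bone marrow, to which the chemokine CXCL12 and its receptor CXCR4 draw them, and where integrins that contain the ITGA4 chain hold them to stromal cells through VCAM1 and fibronectin. ITGB7, which pairs with ITGA4 or ITGAE, is known for high expression in some myelomas.

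Of the 45 genes, 35 were found in a table of RefSeq gene starts (GRCh38.p14), with 65 start sites between them. Below are the 250 bases upstream of the start for the 4 genes with a changed level and a single listed start, shown because they are the reference promoters of genes that moved in opposite directions. Capitals mark a GC box (GGGCGG or CCGCCC) or a CCAAT box (CCAAT or ATTGG), searched on both strands with overlapping matches counted. CCR1 lies on the minus strand at chr3:46208314-46208563, VIM on the plus strand at chr10:17227991-17228240, NID2 on the minus strand at chr14:52069060-52069309 and ITGA8 on the minus strand at chr10:15719923-15720172.
CCR1: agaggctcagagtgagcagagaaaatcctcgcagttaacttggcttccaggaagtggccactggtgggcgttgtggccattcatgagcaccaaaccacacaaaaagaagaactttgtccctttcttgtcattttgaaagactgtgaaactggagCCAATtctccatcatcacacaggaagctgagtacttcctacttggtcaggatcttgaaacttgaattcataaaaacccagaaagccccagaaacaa
VIM: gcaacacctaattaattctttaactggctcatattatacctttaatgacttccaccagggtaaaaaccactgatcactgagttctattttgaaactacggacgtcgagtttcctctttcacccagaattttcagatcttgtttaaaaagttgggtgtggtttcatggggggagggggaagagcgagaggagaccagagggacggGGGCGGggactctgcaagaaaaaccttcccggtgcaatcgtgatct
NID2: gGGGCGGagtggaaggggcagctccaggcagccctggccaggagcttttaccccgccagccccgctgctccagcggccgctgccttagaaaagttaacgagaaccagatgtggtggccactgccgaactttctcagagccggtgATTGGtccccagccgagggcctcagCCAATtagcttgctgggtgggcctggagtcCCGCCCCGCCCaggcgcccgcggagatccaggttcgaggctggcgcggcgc
ITGA8: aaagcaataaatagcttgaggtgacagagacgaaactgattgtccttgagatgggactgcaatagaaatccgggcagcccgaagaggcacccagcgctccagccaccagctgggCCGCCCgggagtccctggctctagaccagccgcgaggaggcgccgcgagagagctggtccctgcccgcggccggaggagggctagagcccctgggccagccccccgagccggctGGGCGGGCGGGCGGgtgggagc
The window of CCR1, the gene of the 4 that was higher with the AURKA guide, held 1 CCAAT box and no GC box, and 45.2% of its bases were G or C. Of the 3 genes that were lower, VIM had 1 GC box in a window of 46% G and C. NID2 had 3 GC boxes, 2 of them overlapping, and 2 CCAAT boxes in a window of 68%. ITGA8 had 4 GC boxes, 3 of them overlapping, also in a window of 68%. No window of the 4 held a TATA box (TATAAA or TTTATA). Over all 65 windows of the adhesion genes, 60% held a GC box, 20% a CCAAT box and 13.8% a TATA box, against 42.6%, 32.0% and 10.7% of all 35116 windows in the table. These shares are of windows and not of genes. Some genes gave several windows, such as ABLIM1 with 6 and BCAR1 with 5, and windows of 1 gene are not independent. These are counts of letters. The start used in LP-1 was not measured, so a match or its absence describes the reference window and no binding. Which transcript each listed start belongs to was not checked. For VIM, 99.4% to 99.8% of expected counts were on 1 transcript, XM_006717500.2, and its window may be that of another.

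Libraries held 17724174 to 18523594 expected counts in total. AURKA itself, the mitotic kinase Aurora A, had expected counts of 3498, 3364 and 3627 in C1 to C3 and of 2062, 2191 and 2079 in A1 to A3. Its log2 fold change was -0.74 (SE 0.0488, adjusted p = 1.55e-06 by the quasi-likelihood test of edgeR), and reads from the gene remained in all 3 libraries labelled as knockout. C2 and C3 stood furthest apart among replicates, with a chi-square per gene of 10.5 against 2.24 to 5.22 in the other pairs of 1 group. Leaving out C3 raised the number of genes called from 267 to 2034, and leaving out any other library gave 98 to 234. Markers of plasma cells summed to 8471 to 9324 CPM (counts scaled to the library size) in controls and 8631 to 8847 with the AURKA guide. All 10 of them passed the filter on low counts, but SLAMF7 was at no more than 1.18 CPM and CD27 at no more than 2.34 CPM in controls, and CD38 was called higher with the AURKA guide. Markers of the other cell types summed to no more than 6.11 CPM for any list in any library, and of the genes measured for each, 4 of 6 epithelial, 2 of 6 myeloid, 1 of 7 stromal, 0 of 6 T and NK cell, 0 of 5 erythroid and platelet and 0 of 4 endothelial genes passed the filter.

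Of the 45 adhesion genes, 40 had enough reads to be tested, and 7 were called at an adjusted p of 0.05 or less over all 13138 genes tested: CCR1, ABLIM1 and ITGB5 rose with the AURKA guide, and VIM, NID2, ITGA8 and BCAR1 fell. That is 17.5% of the genes tested from the list, against 2.03% of all genes tested. Of all genes, 0.959% were called higher and 1.07% lower. The list was chosen with earlier results of these libraries known, so the difference between these shares is a description. With an unadjusted p under 0.05 there were 16 of the 40 (7 higher, 9 lower), against 16.1% of all genes. In 15 of the 40 the AURKA-guide libraries lay all above (7) or all below (8) the controls, against 20.8% of all genes tested (10.5% above, 10.2% below). The median log2 fold change of the 40 was -0.01, and the range ran from -0.83 for NID2 to 0.48 for ABLIM1, while the median of all genes was -9.41e-05. Without C3, 16 adhesion genes were called (5 higher, 11 lower), beside 15.3% of all genes tested in that fit. The 9 genes added were CXCR4, RDX, ACTN4, FERMT3, ITGA3, PECAM1, PXN, SELPLG and ZYX. Without C2 the number was 7, and without C1, A1, A2 or A3 it was 4 in each case. CCR1, VIM and ABLIM1 were called in all 6 of these fits, NID2 in 5, ITGA8 in 3, ITGB5 in 2 and BCAR1 in 1. The authors' deposited gene table, which lists 1.31% of all genes, holds 7 members: the called genes without BCAR1, and CXCR4.

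**Figure D1:**
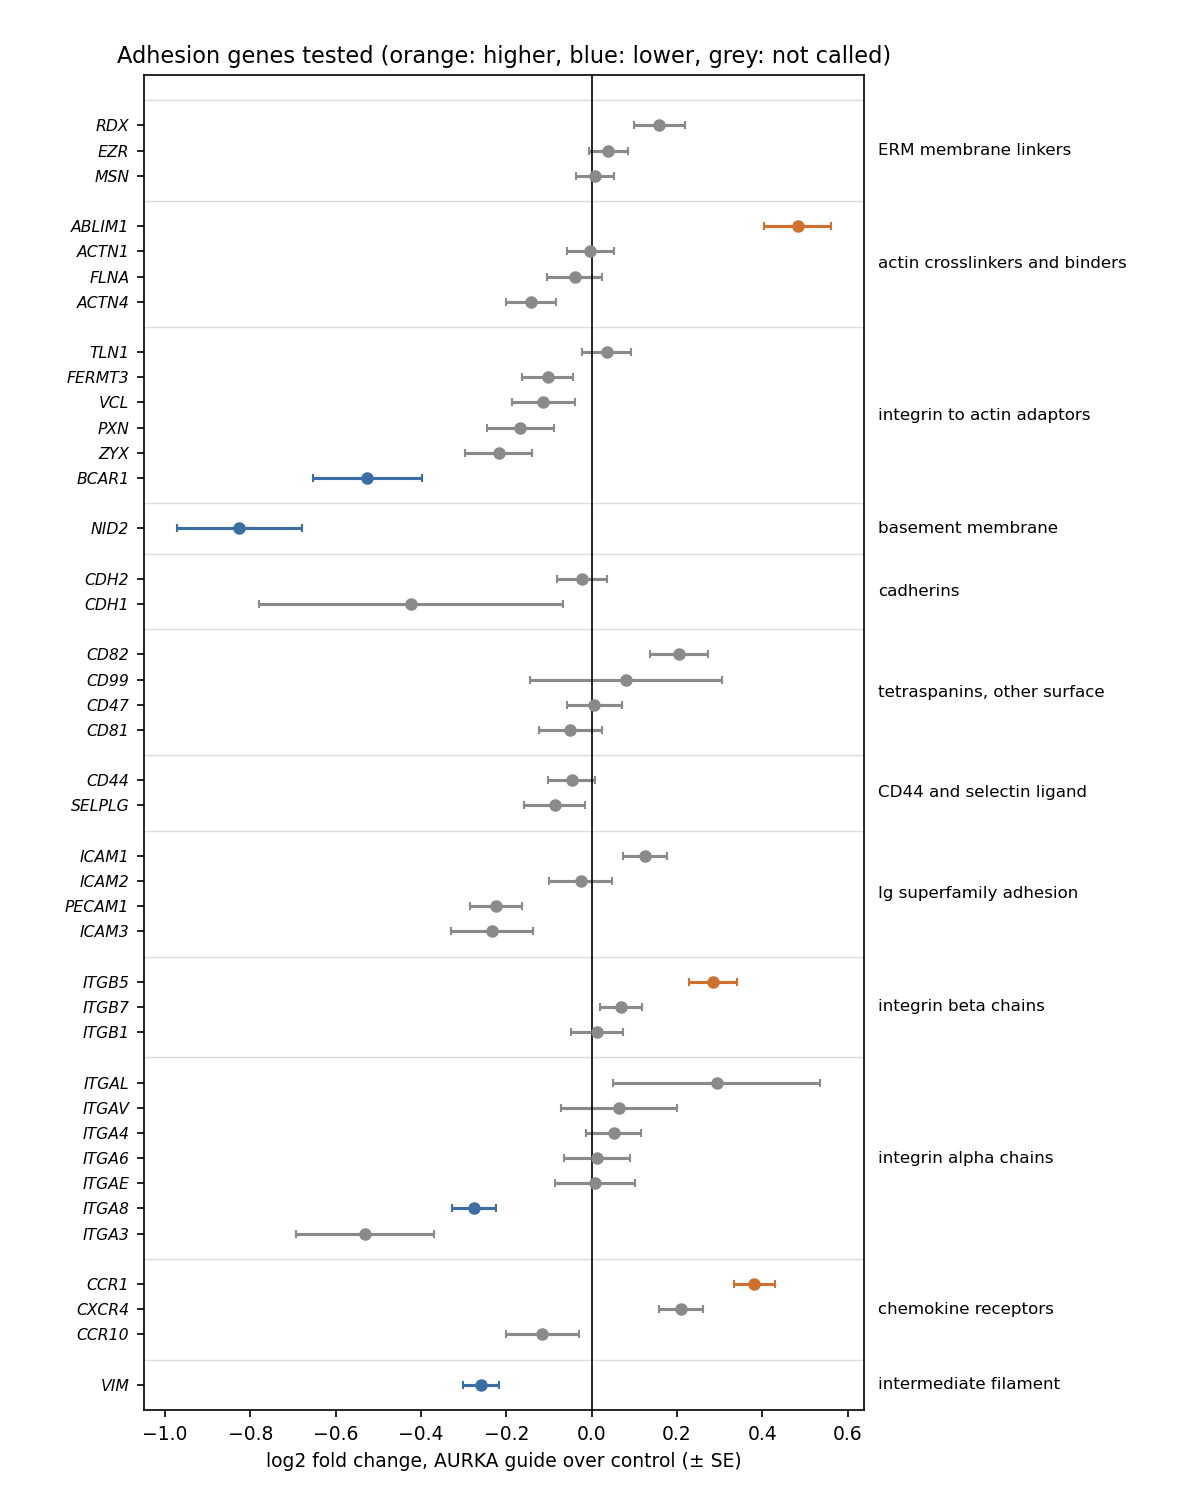
Log2 fold change, AURKA guide over control, of the 40 adhesion genes tested (horizontal axis, points with bars of 1 SE from edgeR), grouped by role on the vertical axis. Orange points are the 3 genes called higher, blue points the 4 called lower, and grey points the rest. The called genes lie in 7 different role groups, and the grey points other than ITGA3, CDH1 and ITGAL lie between -0.23 and 0.21.

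Of the 3 chemokine receptors, which are among the homing genes of the list, 1 rose. CCR1, a receptor for CCL3 and CCL5, was at 145, 153 and 146 CPM in C1 to C3 and at 195, 192 and 192 CPM in A1 to A3. All AURKA-guide libraries lay above all controls, and the gap was several times the spread within either group. The increase was 1.30-fold (log2 0.38, SE 0.0475, adjusted p = 5.66e-04). All its reads were on a single transcript, NM_001295.2, whose expected counts were 2674, 2685 and 2720 against 3560, 3514 and 3541. CXCR4, the CXCL12 receptor, was at 119, 125 and 130 CPM in controls and 140, 146 and 147 CPM with the AURKA guide. The groups did not overlap, but the log2 difference of 0.21 (SE 0.0516) narrowly missed the threshold (adjusted p = 0.0519). It passed with the DESeq2 test (adjusted p = 0.0225), without C3 (0.00333), with library size alone as scaling (0.0479) and after adjustment for GC content (0.00623), and the authors' deposited table lists it with an adjusted p of 0.0315. Without C1, A1, A2 or A3 the adjusted p was 0.105 to 0.327. CCR10, which binds the chemokines CCL27 and CCL28, was at 46.0, 55.8 and 43.0 CPM in C1 to C3 and 46.8, 44.1 and 42.6 CPM in A1 to A3. C2 was the high library, and the groups overlapped (log2 -0.12, SE 0.0847, adjusted p = 0.523). In bulk RNA, fewer cells with a transcript and less of it per cell cannot be told apart, for these genes as for those that follow.

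**Figure D2:**
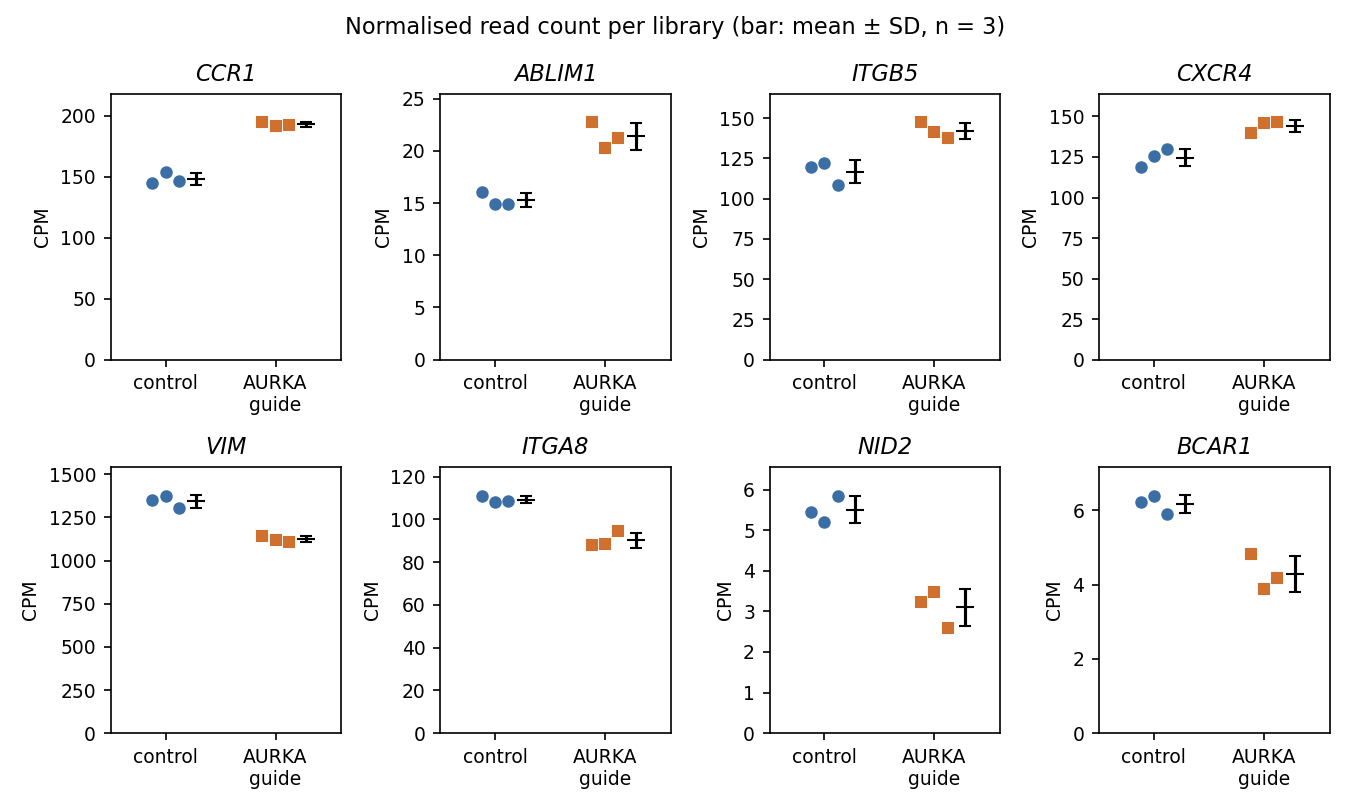
CPM of the 7 called adhesion genes and of CXCR4 in each library (vertical axes start at 0), with controls as blue circles, AURKA-guide libraries as orange squares, and bars for the mean ± SD of 3 libraries. In each panel the groups are apart, from CCR1 at 145 to 153 against 192 to 195 CPM to NID2 at 5.20 to 5.85 against 2.60 to 3.49 CPM.

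Among the integrin chains, levels set per transcript length (the authors' FPKM) placed ITGB7 far above the rest, and 1 alpha and 1 beta chain changed. ITGB7 had 1006 ± 55.4 FPKM in controls (SD, n = 3), the highest of all 45 genes, and its lowest control library (944 FPKM) lay above the highest VIM library (726 FPKM). Next among beta chains were ITGB5 (35.4 ± 2.06 FPKM) and ITGB1 (26.8 ± 2.38 FPKM), while ITGB2 and ITGB3 were at 0.04 FPKM or less in every control. The alpha chains were led by ITGA8 (15.7 ± 0.422 FPKM) and ITGA4 (13.2 ± 1.20 FPKM), whose control ranges did not overlap, followed by ITGA6 (3.29), ITGAE (2.36), ITGA3 (0.820), ITGAV (0.737) and ITGAL (0.247). The ranges of ITGA3 and ITGAV overlapped, so these 2 have no order. Set against its known partners in the same library, ITGB7 RNA was 77.0 ± 11.1 times that of ITGA4 in controls and 77.4 ± 7.01 times with the AURKA guide. For ITGAE the ratio was 429 ± 49.8 in controls. These are ratios of RNA and say nothing of the number of pairs on the surface. ITGB7 overlaps ZNF740 on the opposite strand, which had 13.4 FPKM in controls, and whether reads of one entered the count of the other was not tested. ITGAE overlaps HASPIN on the opposite strand, whose mean expected count over all libraries was 383, above the 198 to 226 of ITGAE. That was not tested either, so the level of ITGAE and its ratio to ITGB7 carry this limit.

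**Figure D3:**
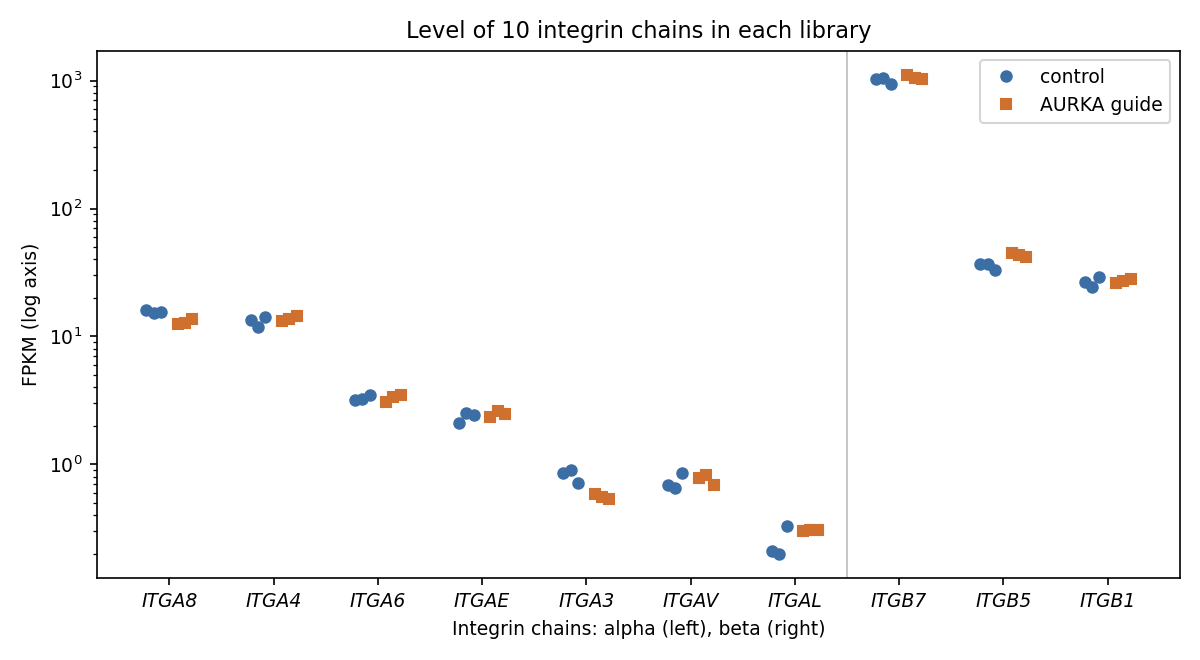
FPKM (log axis) of the 10 integrin chains tested, alpha chains on the left and beta chains on the right, with 3 control libraries (blue circles) and 3 AURKA-guide libraries (orange squares) each. ITGB7 stands at about 1000 FPKM in every library, while ITGA8 at 15.7 FPKM and ITGB5 at 35.4 FPKM in controls are the 2 chains that changed.

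The alpha chain that fell was ITGA8, which pairs with ITGB1 and binds matrix proteins such as nephronectin. It was at 111, 108 and 109 CPM in C1 to C3 and at 87.8, 88.4 and 94.4 CPM in A1 to A3. The controls lay close together, and every AURKA-guide library lay below them (log2 -0.28, SE 0.0520, adjusted p = 0.0105). Its call was lost without C1 (adjusted p = 0.0986), A1 (0.0730) or A2 (0.0978), and on log2 FPKM with limma (0.0593 to 0.0603). The FPKM ratio of ITGA8 to ITGB1 was 0.588 ± 0.0493 in controls and 0.480 ± 0.0111 with the AURKA guide. ITGA3, a laminin-binding chain, was low, at 4.11, 4.28 and 3.44 CPM against 2.95, 2.73 and 2.49 CPM. Its groups did not overlap, yet the log2 difference of -0.53 (SE 0.163) did not pass (adjusted p = 0.126). The other 5 alpha chains tested had log2 differences between 0.01 (ITGAE, ITGA6) and 0.29 (ITGAL, SE 0.242, at 1.03 to 1.61 CPM), all with an adjusted p of 0.579 or more. ITGA4 was at 97.8, 87.7 and 103 CPM in controls and 95.7, 98.5 and 105 CPM with the AURKA guide, with groups that overlapped (log2 0.05, SE 0.0640).

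The authors' estimates also divide ITGA8 reads differently between its transcripts in the 2 groups. NM_003638.2 had expected counts of 1903, 1775 and 1877 in C1 to C3 and 1161, 1373 and 1493 in A1 to A3. NM_001291494.1 had 112, 93.0 and 132 in controls against 435, 228 and 218. The lesser transcript took 5.43%, 4.92% and 6.51% of ITGA8 counts in controls and 27.1%, 14.0% and 12.5% with the AURKA guide (5.62% ± 0.815 against 17.9% ± 7.99), so every AURKA-guide library was above every control, with A1 far above the other two. In the authors' deposited transcript table, NM_003638.2 was lower (log2 -0.48, adjusted p = 1.71e-04) and NM_001291494.1 higher (1.39, adjusted p = 0.0150). By the edgeR test over 43979 transcripts neither passed (adjusted p = 0.462 and 0.627). That test called 0 of 138 transcripts of the adhesion genes (smallest adjusted p 0.268), beside 0.00227% of all transcripts. Of the 138, 10 had an unadjusted p under 0.05, and the share of all transcripts under that threshold was not counted. DESeq2 called 5, beside 0.972% of 76759 transcripts. The authors' deposited table called 6 with the AURKA guide, beside 1.55% of 78198 transcripts, and 3 with a guide against NSD2, beside 1.78% of 78311. The last 3 tests covered more transcripts than edgeR, so 5, 6 and 3 are not out of 138. The adhesion genes have 236 transcripts in all, and how many entered each of these tests was not counted. With the NSD2 guide, the called transcripts of RDX and PECAM1 had 0 to 0.09 expected counts in the 6 libraries used here. Dividing reads among transcripts is an estimate whose own error is not in these tests.

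**Figure D4:**
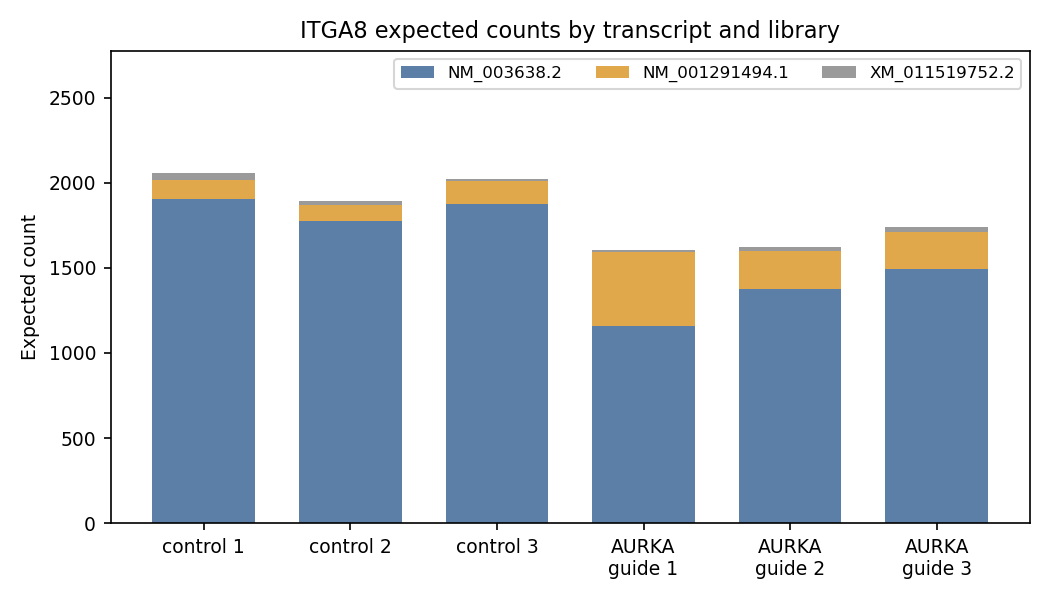
Expected counts of the 3 ITGA8 transcripts with most reads, stacked for each library (vertical axis from 0). NM_003638.2 (blue) has 1775 to 1903 counts in controls and 1161 to 1493 with the AURKA guide, and NM_001291494.1 (yellow) takes 12.5% to 27.1% of the counts there against 4.92% to 6.51% in controls.

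The beta chain that rose was ITGB5, which pairs with ITGAV to bind vitronectin. It was at 120, 122 and 109 CPM in C1 to C3 and 148, 141 and 138 CPM in A1 to A3. The lowest AURKA-guide library exceeded the highest control, and the log2 difference was 0.28 (SE 0.0564, adjusted p = 0.0151). Its call was lost without C1 (adjusted p = 0.0807), A1 (0.0937), A2 (0.0960) or A3 (0.0658). ITGAV, its partner, stood at 4.68 to 5.91 CPM in controls and 4.88 to 5.72 CPM with the AURKA guide (log2 0.06, SE 0.135). In FPKM, ITGB5 was 49.0 ± 9.23 times ITGAV in controls and 56.8 ± 4.0 times with the AURKA guide, ratios whose ranges overlapped. ITGB7 was at 2939, 3048 and 2695 CPM against 3180, 3007 and 2917 CPM, with overlapping groups (log2 0.07, SE 0.0497, adjusted p = 0.517). After adjustment for GC content its log2 value was 0.14 (adjusted p = 0.00293). ITGB1, the partner of most alpha chains here, was at 96.5 to 113 CPM and 101 to 108 CPM (log2 0.01, SE 0.0613).

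Of the ligands and receptors of the immunoglobulin superfamily, none of the 4 tested was called, though 3 had an unadjusted p under 0.05. DESeq2 called none of them either. PECAM1, which binds itself between cells, was at 65.3, 60.3 and 68.7 CPM in controls and 56.8, 55.0 and 54.6 CPM with the AURKA guide. Each AURKA-guide library lay below each control (log2 -0.22, SE 0.0612, adjusted p = 0.0825), and the call was made without C2 (0.0163), without C3 (0.0328) and after GC adjustment (0.00472). ICAM1, a ligand of beta-2 integrins, was at 138, 135 and 127 CPM against 147, 148 and 142 CPM, also without overlap (log2 0.13, SE 0.0506, adjusted p = 0.241, or 0.00331 after GC adjustment). ICAM3, its relative on leukocytes, was at 10.3, 10.5 and 9.67 CPM against 9.13, 8.83 and 7.97 CPM (log2 -0.23, SE 0.0970, adjusted p = 0.254). ICAM1 was thus above and PECAM1 and ICAM3 below the controls, by amounts that the test did not separate from the spread between libraries. ICAM2 had a log2 value of -0.03. VCAM1, the ligand of ITGA4 integrins on stromal cells, had 2 reads in A2 and 0 in the other 5 libraries.

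Other surface proteins showed no call in either direction among the 8 tested, by edgeR or by DESeq2, and CD82 alone had an unadjusted p under 0.05. CD82, a tetraspanin that organises integrins in the membrane, was at 26.8, 28.3 and 26.0 CPM in controls and 31.0, 30.0 and 32.5 CPM with the AURKA guide. The groups did not overlap (log2 0.20, SE 0.0674, adjusted p = 0.154), and it passed after GC adjustment (0.00521). The tetraspanin CD81 was at 40.9, 43.8 and 38.2 CPM against 43.2, 38.8 and 36.7 CPM, with overlap and no stable sign (log2 -0.05, or 0.05 after GC adjustment). CD44, the hyaluronan receptor, was at 73.8, 72.3 and 76.5 CPM against 73.8, 73.1 and 68.6 CPM (log2 -0.05, SE 0.0555). SELPLG, the P-selectin ligand, was at 164, 183 and 143 CPM against 161, 151 and 150 CPM. Its 3 controls spanned more than the distance between the groups (log2 -0.09, SE 0.0717, adjusted p = 0.579). CD47, the signal that restrains phagocytes, and CD99 had log2 values of 0.01 and 0.08. The cadherins join cells to each other through calcium-dependent contacts, and in LP-1 the neural form was the abundant one. CDH2 was at 72.01, 67.4 and 76.5 CPM against 70.01, 70.9 and 71.7 CPM, with the AURKA-guide libraries inside the control range. CDH1 was at 1.14, 0.800 and 0.483 CPM against 0.711, 0.600 and 0.488 CPM, a log2 difference of -0.42 with an SE of 0.356.

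NID2, a basement membrane protein that links laminin and collagen networks, had the largest log2 difference of the 40 genes and few reads. It was at 5.46, 5.20 and 5.85 CPM in C1 to C3 and 3.23, 3.49 and 2.60 CPM in A1 to A3. Controls were 1.77 times the AURKA-guide level, and no libraries overlapped (log2 -0.83, SE 0.147, adjusted p = 0.00735). Without A3 the adjusted p was 0.0608. NID2 overlaps RTRAF on the other strand, which had 117 to 130 CPM in controls and 117 to 126 CPM with the AURKA guide (log2 -0.03, adjusted p = 0.838). Whether reads of RTRAF entered the NID2 count was not tested, because the strandedness of the counting is not given in the sources used here. In all, 10 of the 45 genes overlap another gene of the table in GENCODE: NID2, ITGB7, ITGAE, CCR10, ICAM2, TLN1, VCL, ZYX, FERMT3 and ACTN4. For VCL the gene on the other strand, AP3M1, had a mean expected count of 2867, against 516 to 590 for VCL. For CCR10 it was CNTNAP1 with 687, against 786 to 977 for CCR10. Whether reads were shared was not tested for any of these genes.

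Among the 6 adaptors that connect integrins to actin, 1 fell and none rose. BCAR1, the docking protein p130Cas, was at 6.22, 6.40 and 5.91 CPM in controls and 4.81, 3.87 and 4.17 CPM with the AURKA guide. All controls were above all AURKA-guide libraries, but the call was at the edge (log2 -0.53, SE 0.128, adjusted p = 0.0496). It held without C3 and was lost without any of the other 5 libraries (adjusted p 0.0547 to 0.240), with DESeq2 (0.181) and with DESeq2 size factors (0.0516). ZYX, zyxin of focal contacts, was at 102, 118 and 89.8 CPM against 91.0, 85.2 and 89.9 CPM. C3 lay among the AURKA-guide libraries and C2 far above them (log2 -0.22, SE 0.0785, adjusted p = 0.194), and after GC adjustment the log2 value was -0.10. PXN (paxillin), VCL (vinculin) and FERMT3 (kindlin-3, the blood cell kindlin) had log2 values of -0.17, -0.11 and -0.10 with adjusted p from 0.313 to 0.473. TLN1 (talin) was at 0.04. FERMT3 was the most abundant adaptor, at 151 ± 11.7 FPKM in controls, then ZYX (44.7) and TLN1 (31.2), whose ranges did not overlap, with PXN at 7.83, VCL at 5.67 and BCAR1 at 1.73 FPKM.

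Of the 4 proteins that crosslink or bind actin, ABLIM1 rose and the rest were not called. ABLIM1, an actin-binding LIM protein, was at 16.1, 14.9 and 14.9 CPM in C1 to C3 and at 22.8, 20.2 and 21.2 CPM in A1 to A3. The groups were clearly apart, with a 1.40-fold increase (log2 0.48, SE 0.0784, adjusted p = 0.00408). Its reads were spread over many transcripts, none of which was called. ACTN4, an alpha-actinin that bundles actin, was at 316, 329 and 280 CPM against 290, 273 and 275 CPM. C3 lay among the AURKA-guide libraries (log2 -0.14, SE 0.0581, adjusted p = 0.244). Its relative ACTN1 had a log2 value of 0 to 2 decimals, and the FPKM ratio of ACTN4 to ACTN1 was 4.16 ± 0.204 in controls and 3.77 ± 0.142 with the AURKA guide. FLNA, filamin A, which ties integrin tails to actin networks, was the third most abundant gene of the list at 372 ± 35.7 FPKM in controls. It was at 3307, 3502 and 2850 CPM against 3336, 2961 and 3102 CPM, with overlap (log2 -0.04, SE 0.0643).

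Ezrin, radixin and moesin link the cell membrane to cortical actin, and none of the 3 was called by edgeR or DESeq2. RDX (radixin) had an unadjusted p under 0.05, at 47.4, 44.5 and 48.4 CPM against 52.7, 50.5 and 53.4 CPM. Its AURKA-guide libraries lay above the controls (log2 0.16, SE 0.0599, adjusted p = 0.212), but by 0.09 after GC adjustment. EZR was at 181, 183 and 184 CPM against 183, 191 and 188 CPM (log2 0.04, SE 0.0460). MSN, the most abundant of the 3 at 95.1 ± 2.27 FPKM in controls, had a log2 value of 0.01, and its FPKM ratio to EZR was 1.63 ± 0.0791 and 1.61 ± 0.0190.

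VIM, the intermediate filament protein of mobile and mesenchymal cells, was the second most abundant gene of the list (716 ± 14.3 FPKM in controls) and fell. It was at 1351, 1377 and 1303 CPM in C1 to C3 and at 1141, 1121 and 1107 CPM in A1 to A3. The highest AURKA-guide library was well below the lowest control, with a log2 difference of -0.26 (SE 0.0414, adjusted p = 0.00372). Between 99.4% and 99.8% of its expected counts were on XM_006717500.2 in every library, so the gene and that transcript gave the same difference. The FPKM ratio of ITGB7 to VIM was 1.40 ± 0.050 in controls and 1.77 ± 0.0517 with the AURKA guide. Markers of stromal cells, in which VIM is also abundant, summed to 4.78 to 5.84 CPM in controls and 5.15 to 5.94 CPM with the AURKA guide. Most of that sum was ACTA2, at 4.35 to 5.67 CPM over all libraries. The other stromal genes measured were at no more than 0.433 CPM (COL1A1) in any library.

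The 5 genes not tested had at most 9 reads in any library: VCAM1, ITGA5, ITGB2, ITGB3 and CD9, with 36 reads in all 6 libraries together. ITGB2, the beta chain of the integrin LFA-1, had 1 read in A2 and 0 elsewhere. Its partner ITGAL was also low, at 0.2 to 0.33 FPKM in controls. The ligands ICAM1, ICAM2 and ICAM3 were at 40.7, 30.8 and 4.52 FPKM there. ITGA5, the fibronectin receptor chain, had 1 read in C3 and 1 in A2. At this depth no difference between the groups could be detected for these genes. Over the whole list, 4 genes exceeded 100 FPKM in controls (ITGB7, VIM, FLNA, FERMT3), 23 lay between 10 and 100, 8 between 1 and 10, and 10 under 1.

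Part of the spread between the control libraries followed base composition. Over the 40 genes, the log2 ratio of C2 to C3 had a Pearson r of 0.544 and a Spearman rho of 0.717 with the GC content of the longest coding transcript, and over 12803 tested genes with a value 0.492 and 0.642. The genes in this relation share the same pair of libraries, and it is given as a description. The adhesion genes have a median GC content of 54.6%, against 48.5% of all tested genes. GC-rich members were higher in C2, by a log2 ratio of 0.39 for ZYX, 0.38 for CCR10, 0.35 for SELPLG and 0.30 for FLNA. Members poor in GC were lower there, at -0.23 for both ITGB1 and ITGA4. Among the called genes the ratio was 0.17 for ITGB5, 0.12 for BCAR1, 0.08 for VIM, 0.07 for CCR1, -0.17 for NID2 and between -0.01 and 0 for ITGA8 and ABLIM1. With an adjustment for GC content 11 members were called, 7 higher (CCR1, CXCR4, ABLIM1, ITGB5, ITGB7, ICAM1, CD82) and 4 lower (VIM, ITGA8, NID2, PECAM1), beside 6.01% of all genes, and BCAR1 was no longer called (adjusted p = 0.0529).

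**Figure D5:**
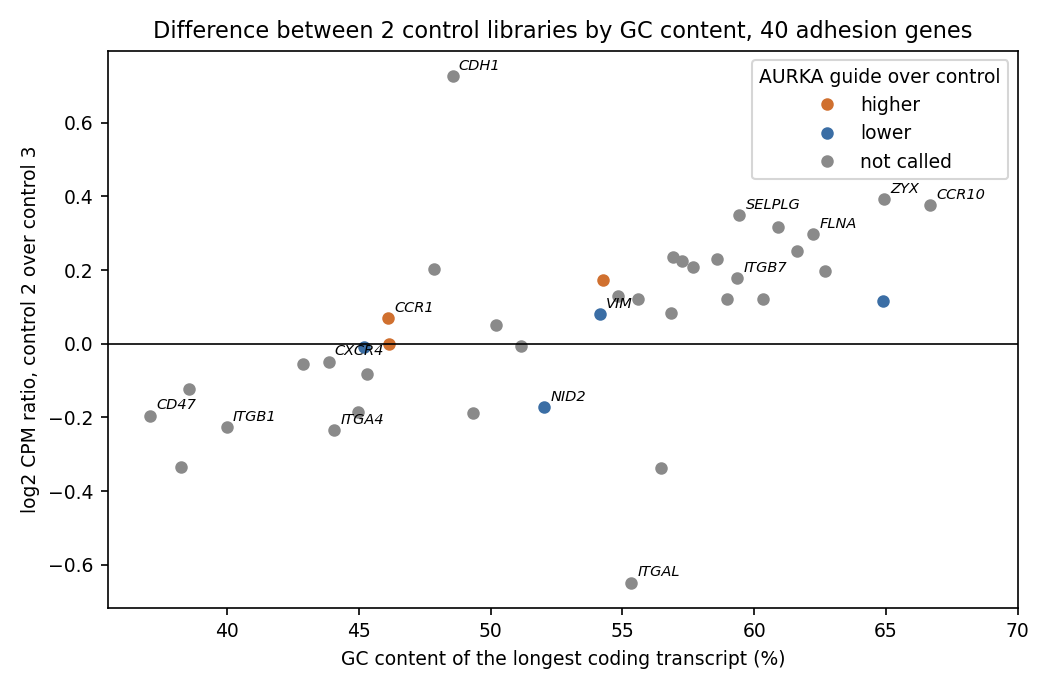
Log2 ratio of CPM between control libraries C2 and C3 (vertical axis) against the GC content in percent of the longest coding transcript (horizontal axis), 1 point for each of the 40 adhesion genes tested, coloured by the call for AURKA guide over control. GC-rich genes such as ZYX (0.39) lie above 0 and GC-poor ones such as ITGB1 (-0.23) below, while CDH1 and ITGAL, with few reads, lie off the trend.

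Beyond the 45 genes, 4 lists of other genes of the same pathways held 105 genes, of which 70 were tested. In the main fit 2 were called (2.86%), a share near the 2.03% of all genes tested. Both encode proteins that act on actin. LCP1, the actin bundler L-plastin of blood cells, was at 21.1, 21.9 and 20.8 CPM in controls and rose to 26.1, 26.7 and 27.5 CPM (log2 0.33, SE 0.0678, adjusted p = 0.0168). TMSB10, a thymosin that binds actin monomers, fell from 839, 977 and 816 CPM to 714, 731 and 693 CPM (log2 -0.30, SE 0.0598, adjusted p = 0.0155). Neither gene had overlapping groups, and the other 23 actin genes tested were not called, MYL12A having the next smallest p (log2 0.19, adjusted p = 0.110). Of the 27 genes of integrin activation and signalling tested, edgeR called 0, with a median log2 value of -0.08 and 9 at an unadjusted p under 0.05 (1 higher, 8 lower), while DESeq2 called 2, APBB1IP and PTK2B. Over all genes tested, 16.1% had an unadjusted p under 0.05, the share against which this count and those of the next lists are to be read. APBB1IP, the RIAM adaptor that brings talin to the membrane, had a log2 value of -0.23 (SE 0.0575, adjusted p = 0.0540), the kinase PTK2B -0.18 (adjusted p = 0.0740) and the kinase FYN -0.27 (adjusted p = 0.0777). Among 7 other chemokines and receptors tested, neither edgeR nor DESeq2 called any, and 1 had an unadjusted p under 0.05, CXCL10 (log2 0.21, adjusted p = 0.240). CCL5, a ligand of CCR1, had a log2 value of 0.18 (adjusted p = 0.341). Among 11 matrix proteins and counter-receptors tested, neither tool called any and 3 had an unadjusted p under 0.05, among them the laminin chain LAMA5 (log2 -0.17) and the adhesion molecule ALCAM (-0.28). SDC1, the syndecan of plasma cells, had a log2 value of -0.10. Without C3, 17 of these 70 genes were called, when 15.3% of all genes were called too. Without C2 the number was 3 and without C1 it was 1. Without A1, A2 or A3 neither LCP1 nor TMSB10 nor any other was called. After adjustment for GC content 12 were called, beside 6.01% of all genes. Of the genes of integrin activation and signalling 2 were then higher and 5 lower, with APBB1IP, PTK2B and FYN among those called.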

How the data were processed

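The submitters' processing notes name RSEM, BWA, Bowtie2 and the build hg19. Versions and settings were not given in the sources used here. Expected counts, which need not be whole, and FPKM values per gene and transcript were deposited by the authors (the deposited TPM values were not used), plus tables with their own log2 fold changes and q-values (adjusted p-values).

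Expected counts were rounded and tested with edgeR 4.0.16 (R 4.3.3): filterByExpr, TMM scaling and the quasi-likelihood F test over the whole table, called at a Benjamini-Hochberg adjusted p of 0.05. Fold changes are AURKA guide over control on the log2 scale, with standard errors from the F statistic. CPM uses the TMM-scaled library size. Counting error is not the only error, as reads are not independent molecules. The fit was checked on simulated data.

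Members, lists and promoter motifs were chosen with earlier results of these data known. Named with every library's value were called members, the 2 smallest p in each role and any unadjusted p under 0.05. From other lists, called genes were named with every library's value, and the 3 smallest p with at least 5 CPM by their log2 value. Alternatives were a replicate block, each library left out, no filter, library size alone, DESeq2 size factors, a minimum mean of 10 CPM, DESeq2 1.42.0, limma 3.58.1 on log2 FPKM (pseudocount 1 or 0.1, at least 0.5 FPKM in 3 libraries), and an offset for transcript GC content (GENCODE, spline with 5 degrees of freedom). That annotation is of another build than the files, so it gave GC content and overlaps only, and coordinates are RefSeq's.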

Additional observations from a re-analysis of the deposited data

How the results depend on the processing

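CCR1, VIM and ABLIM1 kept their direction and call under every alternative run, and of 110 refits of the 7 called genes 90 kept the call and 20 lost it, with no change of direction. Leaving out 1 library gave 4 to 16 called members (2 to 5 higher, 2 to 11 lower), 98 to 2034 of all genes, 0 to 17 of the other pathway genes, and a list median of -0.0296 to 0.00208. The main median was -0.0127. It was -0.00275 with no filter, 0.00153 with a mean of at least 10 CPM (where 2 members were lower and NID2 and BCAR1 were not tested), -0.00491 with DESeq2, 0.00227 with GC adjustment and 0.00143 with GC adjustment and the replicate block. GC adjustment called 11 members (7 higher), 789 of all genes and 12 pathway genes, and with the replicate block 11 (7 higher), 882 and 12. DESeq2 called 4 pathway genes and 5 transcripts of members. Same-numbered libraries did not deviate together (r of 0.0514, -0.105 and 0.0951), so no pairing by number was seen, which does not exclude one. The replicate block alone called 8 members, the 7 and CXCR4 (adjusted p = 0.0253), 385 of all genes and 4 pathway genes. Not every library correlated best with its own number. Of members not called, CD81 ranged from -0.119 to 0.00229 with 1 library left out and was at 0.0461 with GC adjustment (0.0458 with the block), CDH2 ranged from -0.0656 to 0.0213 and SELPLG from -0.175 to 0.00187. CD81 was positive without C2 or A3 (0.00172), CDH2 without C3 and SELPLG without C2. The cause of these changes was not tested. Genes with few reads, such as ITGAL and CDH1, could be tested only with SEs of 0.242 and 0.356.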

Other observations

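The authors' deposited transcript table also compares a guide against NSD2, a histone methyltransferase, with control, and its libraries were not analysed here. It is not stated that the controls differ from those of the AURKA comparison, so the values are given side by side and not as independent evidence. In that table the main VIM transcript, XM_006717500.2, was lower with both guides, at a log2 value of -0.26 (adjusted p = 4.44e-12) with the AURKA guide and -0.24 (adjusted p = 2.68e-08) with the NSD2 guide. CCR1 NM_001295.2 was at 0.38 (adjusted p = 7.26e-11) with the AURKA guide and -0.09 with the NSD2 guide. For ITGA8, NM_003638.2 was at -0.48 and 0.08, and NM_001291494.1 at 1.39 and -0.17. A transcript of ITGB7, XM_005268852.5, was at 0.45 (adjusted p = 0.00464) and 0.15, and CXCR4 NM_003467.2 at 0.19 (adjusted p = 0.200) and 0.07. None of these NSD2 values apart from that of VIM passed an adjusted p of 0.05 in the authors' deposited table, and the difference between the guides was not tested. The other transcripts of adhesion genes called with the NSD2 guide, of RDX and PECAM1, had 0 to 0.09 expected counts in the 6 libraries used here. A FERMT3 transcript called with the AURKA guide had 236 in A2 and 0 in the other 5. Within ITGB7 the share of XM_005268852.5 was 12.6%, 14.9% and 12.03% in C1 to C3 and 17.6%, 18.1% and 16.2% in A1 to A3, while the gene as a whole was not called.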
